A study of Mus musculus with 23 samples.

Results

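The genes described here are those that changed within 2 hours of serum in the total RNA of mouse embryonic fibroblasts, on the arrays hybridised with total RNA that the titles do not call amplified. These are 8 of the 23 arrays of the series, 4 from serum-treated cells and 4 from serum-starved cells. Of 12422 probe sets tested, 57 were higher in treated cells (0.459%) and 3 were lower (0.0242%), 60 in all (0.483%), and they are described by what their products do. The comparison asks which messages had changed in abundance in the RNA pool of the cell early after serum, whatever the share of synthesis and of decay in that change.

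The cells were primary fibroblasts from e14.5 embryos, whose genotype the labels give as C57/BLACK6, ATF1 -/+. Atf1 codes for a transcription factor of the CREB family, and both groups carry the same genotype, so every value comes from cells with that allele. All cells were grown in 10% dialyzed fetal bovine serum (FBS), then kept for 48 hours in 1%. The treated cells then spent 2 hours in 10% FBS and the starved cells 2 hours in 1% FBS. In both groups those 2 hours were spent with 200 µM 4-thiouridine, a uridine analogue that enters new RNA, and with 3H-cytidine. The series also holds 8 arrays of newly transcribed RNA, isolated from total RNA through the thiol group, and 7 arrays of amplified total RNA (4 treated, 3 starved). The labels do not say whether same-numbered arrays came from the same embryos or the same day.

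Serum carries growth factors, lysophospholipids and other signals that quiescent fibroblasts lack after starvation. Their receptors switch on the ERK, p38 and other kinase cascades, which act on transcription factors already present, among them SRF with its ELK partners and the CREB and ATF1 family. The genes switched on without any new protein are the immediate early genes: many code for transcription factors, many for inhibitors of the very cascades that switched them on, and many of their messages are short lived.

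The values are signal intensities, quantile normalized between arrays. Changes are differences of log2(signal + 16), treated minus starved, given with the SE of a limma fit that keeps the 4 replicate numbers as a block. On this scale 1 is a 2-fold difference for a bright probe set, and less than the true ratio is shown for a dim one. A probe set was called at a Benjamini-Hochberg adjusted p below 0.05 over all 12422. The labels call the arrays biological replicates but do not say that they came from separate embryos or cultures; if they did not, the p-values measure only the spread between these samples. In bulk RNA, fewer cells of a type and less RNA per cell cannot be told apart.

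Array medians before normalization were 46.0 to 50.5 on the treated arrays and 20.0 to 54.2 on the starved ones, where starved array 2 was the dimmest. After normalization the median change over all probe sets was -0.02. Of 19 fibroblast markers 18 lay above the array median on all 8 arrays, among them Col1a1, Pdgfra, Thy1 and Twist2; the probe set of Vim lay below it. Macrophage markers were also present: 11 of 18, among them Cd68, Csf1r, Cd14 and C1qa, lay above the array median on all 8 arrays. Their summed signal was 6153 to 14947 on treated arrays and 6099 to 14548 on starved arrays. Endothelial (1 of 10), epithelial (1 of 11), skeletal muscle (1 of 16) and erythroid markers (0 of 6) were rarely above the median on all 8.

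The 57 probe sets that rose differed by 0.71 to 2.83, with a median of 1.25, and 45 of them rose by at least 1, or 2-fold on this scale, a size that 0.652% of all probe sets reached upward and 0.0483% downward. At least 2 on the log2 scale, 4-fold, was reached by 10. The annotation gives 1 symbol for 55 of the 57, which make 51 genes, since Errfi1, Junb, Pim1 and Usp2 each had 2 called probe sets. The other 2, with rises of 1.41 ± 0.16 and 1.17 ± 0.12, have several symbols or none and are not named here. All 57 differed upward in each of the 4 pairs, where 8.67% of all probe sets did so. The 4 treated arrays all lay above the 4 starved ones for 40 of the 57, where this holds for 1.52% of all probe sets (2.95% in either direction). For the remaining 17 the arrays of the groups overlapped, while each pair still differed upward. The test that called the 57 used these same arrays and pairs and favours both patterns, so these shares are no separate evidence. The number of calls depended on having all 4 pairs: without pair 1 there were 8 calls, without pair 2 there were 10, and without pair 3 or pair 4 there were 0. Without the block there were 15, all of them among the 60. Below an unadjusted p of 0.05 lay 1333 probe sets (10.7%).

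**Figure D1:**
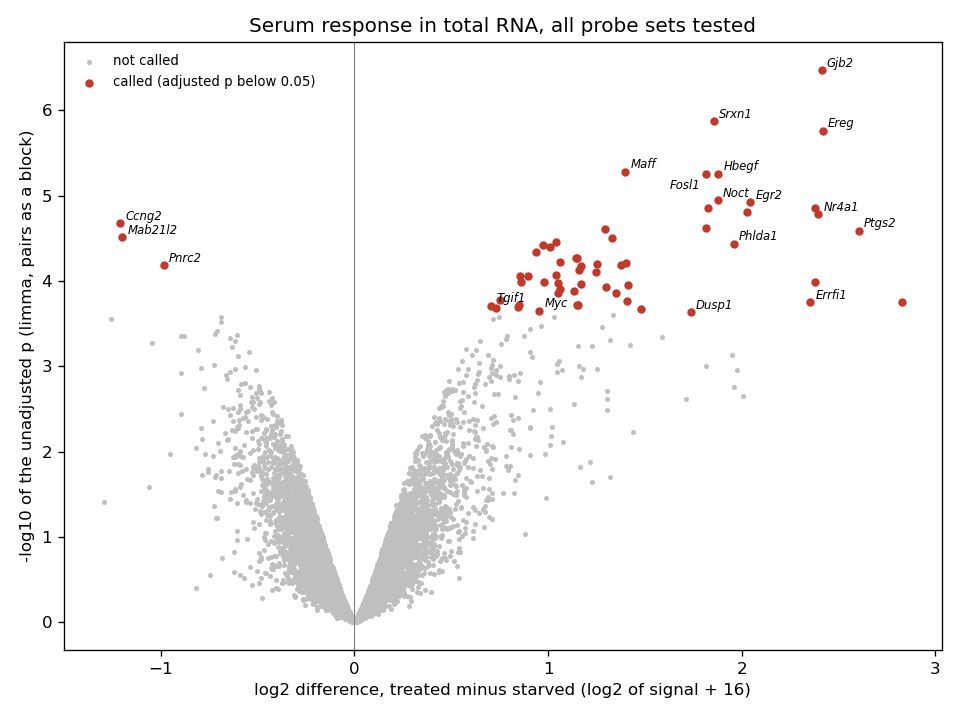
Each point is 1 of 12422 probe sets. The horizontal axis is the log2 difference, treated minus starved, in total RNA, and the vertical axis is -log10 of the unadjusted p. Called probe sets are red: 57 lie to the right between 0.71 and 2.83 and 3 lie to the left between -1.21 and -0.99.

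The start regions of 9 genes that rose are shown, picked because they hold the core TGACG of the cyclic AMP response element (CRE), the site that CREB, ATF1 and their relatives bind, or the AP-1 site TGANTCA, which FOS and JUN proteins bind. Genes with larger rises than some of these, Ptgs2, Ereg and Gjb2 among them, are not shown. Each is the 150 bases before an annotated start, from RefSeq on GRCm38.p6, written 5′ to 3′ along the gene. Where a gene had several annotated starts, the one with the most matches in these bases was taken. Capitals mark TGACG, or CGTCA where it lies on the opposite strand, in the first 6, and TGANTCA in the last 3.
Fosb (chr7:19310046-19310195, minus strand): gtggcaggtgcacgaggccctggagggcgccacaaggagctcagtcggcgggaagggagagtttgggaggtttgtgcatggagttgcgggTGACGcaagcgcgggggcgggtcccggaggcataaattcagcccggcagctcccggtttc
Junb (chr8:84978749-84978898, minus strand): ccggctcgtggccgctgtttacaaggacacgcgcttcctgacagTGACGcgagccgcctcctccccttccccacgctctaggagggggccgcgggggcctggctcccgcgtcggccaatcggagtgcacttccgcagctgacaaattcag
Egr2 (chr10:67537719-67537868, plus strand): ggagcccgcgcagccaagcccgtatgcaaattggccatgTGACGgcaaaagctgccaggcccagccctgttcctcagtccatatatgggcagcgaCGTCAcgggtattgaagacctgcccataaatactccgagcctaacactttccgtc
Nr4a1 (chr15:101266696-101266845, plus strand): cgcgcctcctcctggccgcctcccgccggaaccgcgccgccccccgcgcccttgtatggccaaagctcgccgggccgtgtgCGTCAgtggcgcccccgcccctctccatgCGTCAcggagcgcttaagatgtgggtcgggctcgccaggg
Errfi1 (chr4:150854920-150855069, plus strand): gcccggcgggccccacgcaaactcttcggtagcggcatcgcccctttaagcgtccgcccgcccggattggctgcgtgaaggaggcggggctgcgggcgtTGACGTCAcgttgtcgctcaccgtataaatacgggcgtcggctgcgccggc
Dusp1 (chr17:26508473-26508622, minus strand): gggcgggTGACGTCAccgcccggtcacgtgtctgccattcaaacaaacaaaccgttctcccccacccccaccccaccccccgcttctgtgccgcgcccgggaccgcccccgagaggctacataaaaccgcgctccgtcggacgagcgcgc
Plaur (chr7:24462333-24462482, plus strand): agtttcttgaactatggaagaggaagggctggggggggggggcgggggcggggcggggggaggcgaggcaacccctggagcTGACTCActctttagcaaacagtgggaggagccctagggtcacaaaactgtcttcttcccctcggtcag
F3 (chr3:121723387-121723536, plus strand): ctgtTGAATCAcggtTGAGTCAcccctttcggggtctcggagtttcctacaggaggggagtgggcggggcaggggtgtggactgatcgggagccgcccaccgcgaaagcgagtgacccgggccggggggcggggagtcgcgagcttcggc
Srxn1 (chr2:152105374-152105523, plus strand): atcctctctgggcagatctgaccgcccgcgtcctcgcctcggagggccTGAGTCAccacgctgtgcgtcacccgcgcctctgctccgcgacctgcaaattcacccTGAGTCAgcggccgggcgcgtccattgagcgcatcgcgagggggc

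RefSeq windows running from 250 bases before to 50 bases after a start were found for 39 of the 51 genes that rose and for all 3 that fell. Searched on both strands, TGACG was in a window of 24 of the 39 (61.5%), of 33.1% of the 6577 genes on the array with windows, and of 0 of the 3 genes that fell. The full palindrome TGACGTCA, which contains TGACG, was found for Errfi1, Dusp1, Maff and Ell2, 4 of 39 (10.3%) against 3.16% of array genes. TGANTCA was found for 8 of 39 (20.5%), against 7.51%. The EGR site GCGNGGGCG was found for 6 (15.4%, against 11.0%) and TATAAA for 9 (on the gene's own strand, 23.1%, against 8.27%). The CArG box that SRF binds was searched only as CC, 6 bases of A or T, then GG. In this strict form it was found for Egr2 alone (2.56%, against 1.92%). Near matches and sites outside the windows were not counted. A gene counts when any of its windows holds the letters, and the genes that rose had 1.69 windows each on average, against 1.28 for array genes. A match describes the letters and is no evidence of binding.

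Transcription factors made up 15 of the 51 genes. Fosb, Fosl1 and Junb code for subunits of AP-1, the dimer of FOS and JUN proteins. Fosb gave signals of 799, 763, 893 and 617 on treated arrays 1 to 4, against 90.9, 176, 136 and 144 on starved arrays 1 to 4. The lowest treated array was far above the highest starved one, and the difference was 2.38 ± 0.18 (adjusted p = 0.0172). Fosl1, which codes for FRA-1, had 272, 351, 453 and 394 in treated cells and 58.4, 110.3, 96.0 and 111 in starved cells, again with no overlap, and rose by 1.81 ± 0.12 (adjusted p = 0.0116). Junb was read by 2 probe sets, which rose by 2.38 ± 0.26 and 1.38 ± 0.14 (adjusted p = 0.0328 and 0.0267). The first of them had 294, 249.9, 474 and 208 in treated cells, against 19.4, 54.2, 55.2 and 54.3 in starved cells, where starved array 1 was by far the lowest; without pair 1 its change was 2.13.

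The orphan nuclear receptor gene Nr4a1 gave 1447, 684, 616 and 769 in treated cells, against 162, 110.3, 130.0 and 186 in starved cells. Treated array 1 stood highest, the groups were far apart, and the difference was 2.40 ± 0.19 (adjusted p = 0.0172). Egr2, a zinc finger factor gene, had 755, 580.4, 561 and 451 in treated cells and 192, 122, 85.1 and 132 in starved cells, without overlap, and rose by 2.04 ± 0.15 (adjusted p = 0.0172). Maff, a small MAF protein gene, rose by 1.40 ± 0.09 (adjusted p = 0.0116) at lower levels, with 99.2, 202, 154 and 231 in treated cells, against 24.6, 65.0, 48.2 and 87.6 in starved cells. Every treated array was above every starved one, although pair 1 was dimmer than the others in both groups. Klf10, whose product is a zinc finger factor also induced by TGF-beta, rose by 1.30 ± 0.11 (adjusted p = 0.02), while its other probe set, at 1.42 ± 0.21, was not called (adjusted p = 0.0803). Foxc2, a forkhead factor gene, rose by 1.41 ± 0.17 (adjusted p = 0.0433), with another probe set at 1.06 ± 0.17 and not called.

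Smaller rises were seen for the growth regulator Myc (0.95 ± 0.12), with 118, 93.7, 90.6 and 119 in treated cells, against 64.3, 30.9, 33.8 and 63.7 in starved cells. The groups did not overlap, but pairs 1 and 4 were brighter than pairs 2 and 3 in both. Ets1 rose by 1.05, the circadian repressor Nfil3 by 1.06, the calcium-responsive factor Nfatc1 by 1.05 and Cebpb by 0.85. Other probe sets of Ets1 (0.56 ± 0.11) and Nfil3 (0.44 ± 0.30) were not called. Id1, an inhibitor of basic helix-loop-helix factors, rose by 0.97 and the SMAD corepressor Tgif1 by 0.71, the smallest rise called. For Nfil3, Nfatc1, Cebpb, Id1 and Tgif1 the arrays of the groups overlapped, so their calls rest on the pairs. The 16 called probe sets of this role had a median of 1.34.

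The best known immediate early genes were not all among the calls. Fos, the partner of JUN, gave 176, 483, 369 and 198 in treated cells, against 52.5, 75.6, 56.0 and 135 in starved cells. All treated arrays were higher, but pair 4 differed little, and the difference of 1.71 ± 0.34 was not called (adjusted p = 0.163). Egr1 had 503, 262, 456 and 198 in treated cells and 319, 69.8, 108 and 339 in starved cells. In pair 4 the starved array was the brighter, the groups overlapped, and the 95% interval of the difference was -0.20 to 1.96 (adjusted p = 0.54). Jun differed by 0.53 ± 0.09 with overlapping groups (adjusted p = 0.114). Actb, a target of SRF, differed by 0.14 ± 0.17 and Ccnd1, the cyclin gene of G1 phase, by -0.07 ± 0.14, with adjusted p = 0.857 and 0.937. Dimmer probe sets of Fos (0.202 ± 0.148), Egr1 (0.095 ± 0.169), Actb (-0.027 ± 0.389) and Ccnd1 (0.158 ± 0.177) were not called either. Those of Actb and Ccnd1 had the opposite sign. Among 26 measured immediate early factors of a wider list all 26 differed upward, with a median of 0.71, and 8 rose and 0 fell. Of all 8251 genes, 43.8% differed upward, the median was -0.02, and 47 rose. This list and the others below were chosen with earlier results of these data known, so the contrast is no independent test.

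**Figure D2:**
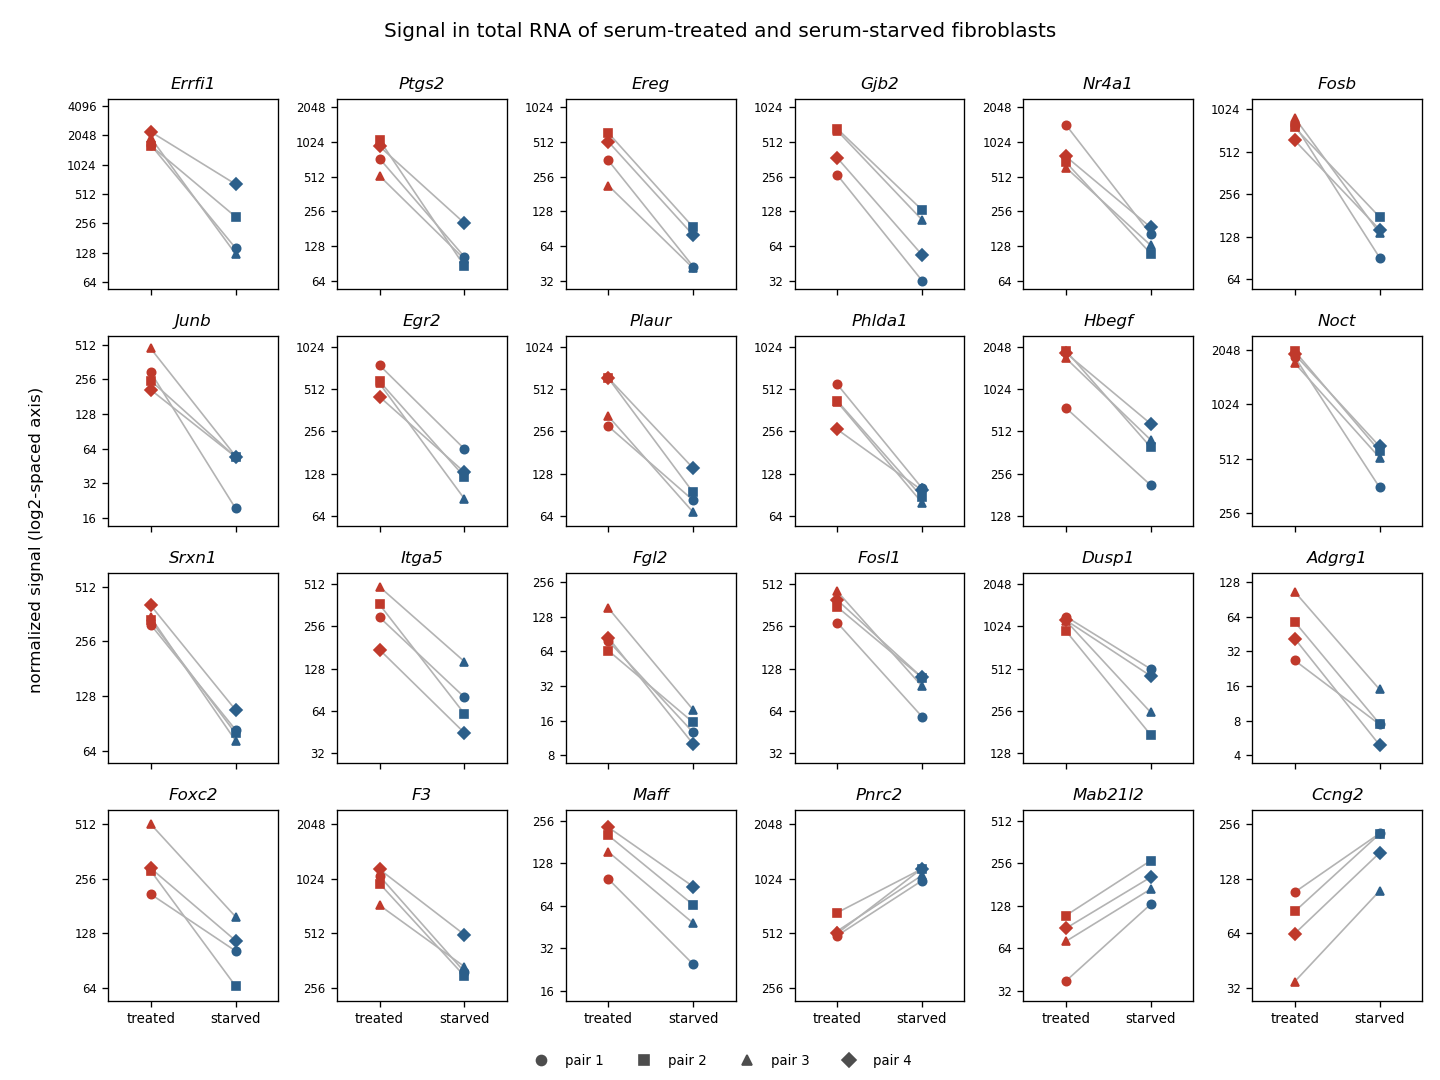
Normalized signal on a log2-spaced axis for the 21 genes with the largest rises and the 3 that fell, with treated arrays on the left (red), starved arrays on the right (blue), and a grey line joining each replicate number. For Errfi1 the treated arrays reach 1615 to 2234 and the starved ones 124.5 to 648, and for Ccng2 the order is the opposite.

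Inhibitors of growth factor signalling formed the next group, 12 genes together with kinases. The largest rise of all was that of Errfi1, whose product binds and inhibits the kinases of the EGF receptor family. Its probe set gave 1641, 1615, 1942 and 2234 in treated cells, against 143, 299.8, 124 and 648 in starved cells. The treated arrays were close to each other and the starved ones were spread, with starved array 4 the highest, and the difference was 2.83 ± 0.34 (adjusted p = 0.0433). A different Errfi1 probe set rose by 2.35 ± 0.28 (adjusted p = 0.0433). Dusp1, a phosphatase that inactivates MAP kinases, had 1199, 948, 1119 and 1129.5 in treated cells and 508, 173, 250.0 and 454 in starved cells. Starved arrays 1 and 4 were above starved arrays 2 and 3, the groups stayed apart, and the rise was 1.74 ± 0.22 (adjusted p = 0.0478).

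Phlda1, a small protein gene with a pleckstrin homology-like domain, rose by 1.96 ± 0.18 (adjusted p = 0.0223), with 554, 423, 416 and 265 in treated cells, against 101, 87.8, 79.9 and 97.8 in starved cells. Its starved arrays lay close together, and all treated arrays were above them. Socs2 (1.25 ± 0.13) and Socs3 (1.30 ± 0.15), which damp cytokine signalling through JAK and STAT, rose with overlapping groups, and array 3 was the brightest of both groups; another Socs3 probe set, at 0.96 ± 0.13, was not called. Spred2, an inhibitor of the RAS to ERK route, rose by 1.25 ± 0.13 with 153, 201, 232 and 246 in treated cells, against 76.4, 75.3, 83.1 and 74.0 in starved cells, where the starved arrays hardly differed. Rgs16, which ends signalling by G proteins, rose by 1.35 ± 0.16 with overlapping groups, and array 1 was the brightest of both; its other probe set, at 0.95 ± 0.18, was not called. Gadd45g, a stress sensor gene, rose by 1.16 ± 0.14.

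Among the kinases, Sgk1, a serum- and glucocorticoid-regulated kinase named for its response to serum, gave 1399, 1328, 947 and 1729 in treated cells, against 824, 672, 595 and 839 in starved cells. The groups did not overlap, and Sgk1 rose by 0.85 ± 0.10 (adjusted p = 0.0439). Pim1 rose on both of its probe sets (1.04 ± 0.11 and 1.04 ± 0.09). Map2k3, which activates p38, rose by 0.94 ± 0.09 with overlapping groups, and array 1 was the dimmest of both groups; its other probe sets, at 0.72 ± 0.14 and 0.03 ± 0.13, were not called. Sphk1, which makes the lipid signal sphingosine 1-phosphate, rose by 1.15 ± 0.11 with 194, 203, 201 and 183 in treated cells, against 91.3, 86.9, 62.9 and 77.8 in starved cells, a narrow spread in both groups. Of a list of 25 measured feedback regulators 6 rose by the probe set that stands for each gene, against 47 of all 8251 genes. From this list 0 fell, 22 differed upward, where 43.8% of all genes did so, and the median was 0.95. Dusp6 (1.59 ± 0.23), Socs1 (1.32 ± 0.19), Dusp2 (1.32 ± 0.42) and Gadd45b (1.30 ± 0.26) were not called, and Spry4 (-0.21 ± 0.19) and Rgs2 (-0.29 ± 0.12) differed the other way without a call.

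Of the next 11 genes, all but Nes code for secreted ligands, receptors, proteins of clotting and proteolysis, or proteins of adhesion. Nes codes for an intermediate filament. The 11 include both EGF-family ligands that were called. Ereg, epiregulin, had 355, 616, 215 and 517 in treated cells, against 42.6, 93.5, 41.2 and 79.8 in starved cells. Pairs 2 and 4 were brighter than pairs 1 and 3 in both groups, and the rise was 2.42 ± 0.13 (adjusted p = 0.00718). A dim Ereg probe set, at 7.5 or less on all 8 arrays, was not called (0.20 ± 0.13). Hbegf, heparin-binding EGF-like growth factor, had 752, 1916, 1694 and 1844 in treated cells and 212, 395, 445 and 579 in starved cells. Array 1 was lowest in both groups and the rise was 1.88 ± 0.12 (adjusted p = 0.0116).

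Csf1, the growth factor of macrophages, rose by 0.90 ± 0.10 (adjusted p = 0.0306) with 1601, 2261, 2436 and 2736 in treated cells, against 912, 1266, 1136 and 1499 in starved cells, without overlap. Beside it, all 18 measured macrophage markers differed upward, by 0.08 to 0.46 with a median of 0.22, and 0 of them were called. Among all 8251 genes 43.8% differed upward, with a median of -0.02. By limma 3 of the 18 markers (16.7%) had an unadjusted p below 0.05, against 12.4% of all genes. The part of macrophage markers in the results was not tested. In a list of 36 measured secreted ligands Ereg, Hbegf and Csf1 rose, where 47 of all 8251 genes did so. From this list 26 differed upward and the median was 0.41. The largest differences without a call were those of Il11 (2.01 ± 0.39), Inhba (1.97 ± 0.34) and Vegfa (1.95 ± 0.31), with adjusted p = 0.156, 0.114 and 0.0949. Among 31 receptors of growth factors and cytokines 0 were called, 16 differed upward and the median was 0.01, and 4 of the 31 (12.9%) had an unadjusted p below 0.05, against 12.4% of all genes.

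Of 17 measured genes of pericellular proteolysis and clotting 3 rose and 0 fell, with a median of 0.08, where 47 of all 8251 genes rose. Plaur, the receptor of urokinase, had 278, 611, 328 and 613 in treated cells, against 83.0, 94.4, 68.3 and 140.3 in starved cells. Treated arrays 2 and 4 were the highest, no arrays overlapped, and the difference was 2.03 ± 0.16 (adjusted p = 0.0172). F3, tissue factor, which starts clotting, had 1058, 962, 730.1 and 1152 in treated cells and 314, 297, 335 and 503 in starved cells, also apart, and rose by 1.40 ± 0.14 (adjusted p = 0.0267). Serpinb2, an inhibitor of urokinase, rose by 1.17 ± 0.13 (adjusted p = 0.0328) with 66.9, 62.0, 45.5 and 44.4 in treated cells, against 12.7, 26.6, 10.5 and 13.0 in starved cells, near the dim end of the scale but apart. Plau itself differed by 0.14 ± 0.12 without a call.

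Gjb2, connexin 26 of gap junctions, had the smallest adjusted p of all, 0.0042. It gave 267, 670.3, 645 and 375 in treated cells, against 32.2, 132, 108 and 53.9 in starved cells. Levels differed between pairs, with pairs 2 and 3 the brightest in both groups, while the 4 pair differences lay within 2.21 to 2.55, and the rise was 2.41 ± 0.10. Itga5, the alpha subunit of the fibronectin receptor, had 296, 365, 488 and 174 in treated cells and 80.2, 61.2, 144 and 44.8 in starved cells, and rose by 1.83 ± 0.14 (adjusted p = 0.0172). Fgl2, a fibrinogen-like protein gene, rose by 1.81 ± 0.15 and Adgrg1, an adhesion receptor of the G protein-coupled family, by 1.48 ± 0.18, both near the dim end of the scale. Fgl2 lay at 64.8 to 152 in treated cells and 10.0 to 19.8 in starved cells, and Adgrg1 at 26.6 to 105 in treated cells and 4.9 to 14.9 in starved cells. A dim Fgl2 probe set was not called (0.15 ± 0.10). For Nes, the intermediate filament nestin, a dim probe set, at 11.1 or less on all 8 arrays, was not called (-0.09 ± 0.12). By its brighter probe set Nes rose by 0.98 ± 0.11 with overlapping groups. Beside it, 3 of 12 neural and glial markers (Tubb3, Stmn2 and Nes itself) lay above the array median on all 8 arrays, and their summed signal was 1272 to 1588 on treated arrays and 1021 to 1352 on starved arrays. Nefl, Nefm, Snap25, Syp and S100b lay below the median on all 8, and the part of such markers was not tested.

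**Figure D3:**
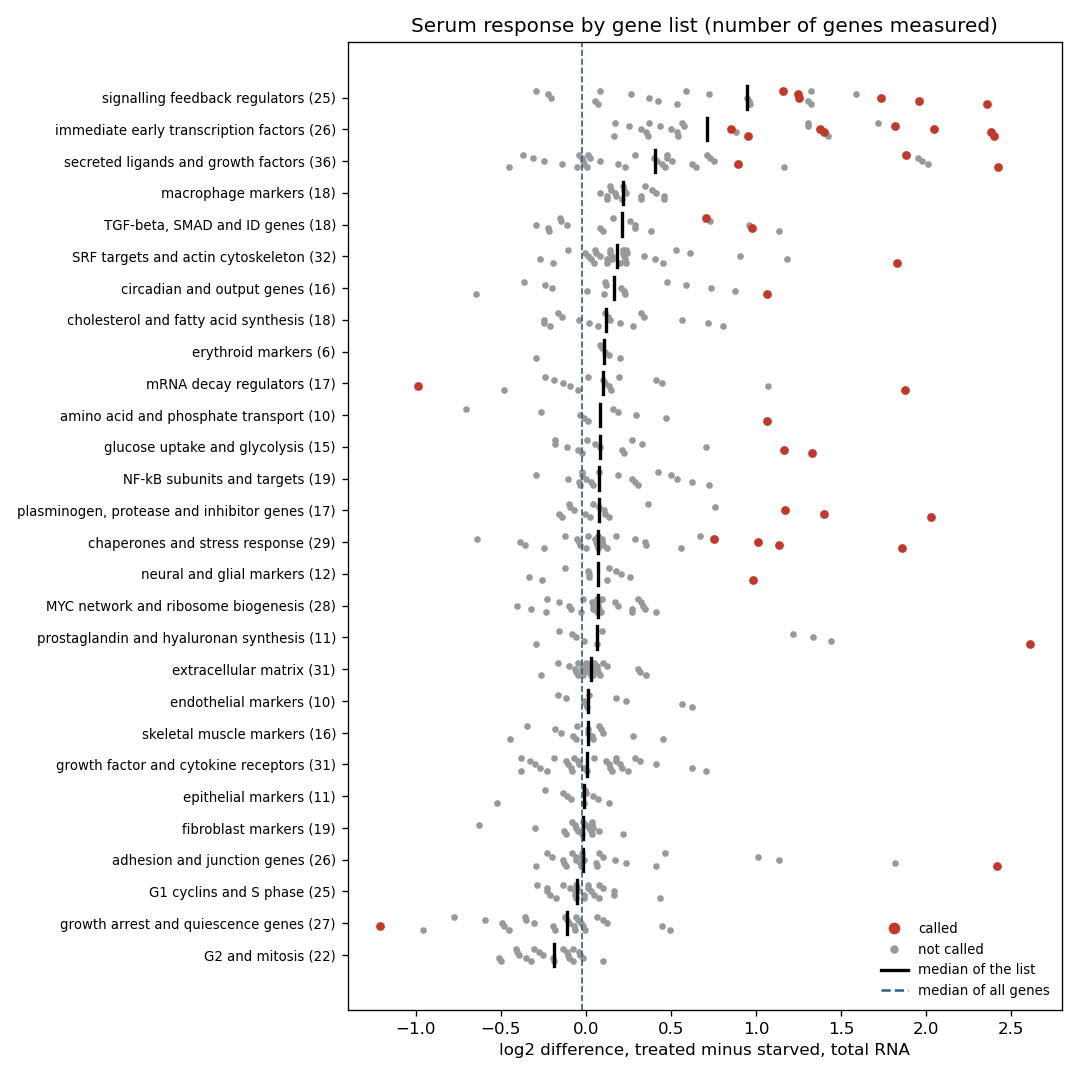
Each point is a gene, by its log2 difference in total RNA (treated minus starved), in rows of gene lists ordered by their median (black bar); red points were called. Feedback regulators (median 0.95) and immediate early factors (0.71) lie furthest to the right of the median of all genes (-0.02, dashed), and G2 and mitosis genes (-0.19) furthest to the left. The lists were chosen with earlier results of these data known.

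Enzymes and transporters were fewer. Ptgs2, cyclooxygenase 2, the inducible enzyme of prostaglandin synthesis, had 737, 1068, 522 and 942 in treated cells, against 104, 86.1, 98.8 and 203 in starved cells. The lowest treated array was above the highest starved one, and the rise of 2.61 ± 0.22 (adjusted p = 0.02) was second to that of Errfi1. The hyaluronan synthases Has1 (1.44 ± 0.34) and Has2 (1.22 ± 0.35) and the hyaluronan receptor Cd44 (1.34 ± 0.17) were not called. Glucose uptake and its first step were represented by the transporter Slc2a1, GLUT1 (1.33 ± 0.12), and by hexokinase 2, Hk2 (1.16 ± 0.12). For Slc2a1 the signals were 151, 497, 374 and 337 in treated cells, against 68.5, 172, 131 and 110.3 in starved cells, and treated array 1 lay within the starved range. Another Hk2 probe set was not called (-0.14 ± 0.14). The other 13 of 15 measured genes of glucose uptake and glycolysis were not called, Ldha (-0.02 ± 0.09) and Pgk1 (0.08 ± 0.14) among them. Slc20a1, a phosphate transporter, rose by 1.06 ± 0.11 and Aldh1a3, which makes retinoic acid, by 1.15 ± 0.11, both with overlapping groups.

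Of 29 measured chaperone and stress genes 4 rose and 0 fell, with a median of 0.07, where 47 of all 8251 genes rose. Srxn1, sulfiredoxin, which reactivates oxidised peroxiredoxins, had 317, 334, 348 and 405 in treated cells, against 83.3, 79.6, 72.5 and 107 in starved cells, a narrow spread in both groups, and rose by 1.86 ± 0.10 (adjusted p = 0.00718). A different probe set of Srxn1 differed by 0.14 ± 0.12 and was not called. Txnrd1, thioredoxin reductase, rose by 0.75 ± 0.09. The chaperone Hspa1b of the Hsp70 family rose by 1.13 ± 0.13 and its partner Dnajb1 by 1.01 ± 0.09. Hspa1b has the near-identical copy Hspa1a, listed at 0.29 ± 0.15 and not called, and the probes may not tell them apart. Ddit3, a factor of the unfolded protein response, differed by -0.64 ± 0.11 without a call.

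A last group acts on RNA and proteins. Noct, nocturnin, a rhythmic protein of the deadenylase-like family, had 1866, 2010.3, 1725 and 1928 in treated cells, against 356, 565, 519.6 and 599 in starved cells, with the groups far apart, and rose by 1.88 ± 0.14 (adjusted p = 0.0172). Its other probe sets were not called, at 1.16 ± 0.19 and 0.07 ± 0.09. The deubiquitinase Usp2 rose on both probe sets (1.15 ± 0.14 and 0.73 ± 0.09), the elongation factor Ell2 by 0.86 ± 0.09, and the cullin adaptor Klhl21 by 0.84 ± 0.10. For Usp2 and Ell2 the groups overlapped. Other probe sets of Ell2 (0.68 ± 0.18 and 0.16 ± 0.11) and of Klhl21 (0.10 ± 0.09) were not called.

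The 3 falls were all seen without overlap of the arrays, which holds for 1.43% of all probe sets in that direction. The test that called them favours such a gap. Ccng2, cyclin G2, a gene of arrested cells that FOXO factors switch on, had 108, 84.3, 34.6 and 63.6 in treated cells, against 227, 226, 109 and 177 in starved cells. The lowest starved array, array 3, was just above the highest treated one, array 1, and the change was -1.21 ± 0.10 (adjusted p = 0.02). Mab21l2, a gene of eye and body wall development, had 37.4, 109, 71.6 and 88.6 in treated cells and 131, 268, 168 and 204 in starved cells, and fell by 1.20 on the log2 scale (adjusted p = 0.0215). Pnrc2, an adaptor of mRNA decapping, had 496, 664, 525 and 509.9 in treated cells and 998, 1159.5, 1067 and 1163 in starved cells, with little spread in either group, and changed by -0.98 ± 0.10 (adjusted p = 0.0267).

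Ccng2 was the only call among 27 measured genes of growth arrest and quiescence, of which 22 differed downward, with a median of -0.11. Over all 8251 genes 3 fell and 43.8% differed upward, with a median of -0.02. Txnip (-0.95 ± 0.26), Gas1 (-0.78 ± 0.14) and Foxo3 (-0.59 ± 0.16) were not called, with adjusted p = 0.299, 0.145 and 0.302. Genes of G2 and mitosis gave 0 calls, 21 of 22 differed downward and the median was -0.19. An unadjusted p below 0.05 was found for 5 (22.7%, against 12.4% of all genes), Kif20a (-0.51 ± 0.12) and Cdc20 (-0.50 ± 0.18) among them. SRF targets and actin genes gave 1 call of 32, Itga5, while 28 differed upward with a median of 0.18; Cnn1 (1.18 ± 0.20) and Acta1 (0.91 ± 0.25) were not called (adjusted p = 0.114 and 0.301).

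The same genes were read on separate arrays of newly transcribed RNA and of amplified total RNA. Newly transcribed RNA was isolated from total RNA, and the replicate numbers recur in each kind of RNA. The labels do not say whether the kinds share cultures, so agreement between them may not be independent. All 57 probe sets differed upward in newly transcribed RNA, where 51% of all probe sets did so, and 53 did so in every pair, against 13.7%. By the same test 33 of the 57 and all 3 of the falls were also called there, where 0.91% of all probe sets rose and 0.829% fell. Those calls also depended on the pairs: the 113 rises and 103 falls in newly transcribed RNA became 24 and 1 without pair 1, 1 and 0 without pair 2, and 0 and 0 without pair 3, without pair 4 or without the block. In amplified total RNA all 57 differed upward as well, against 48.6% of all probe sets. None of the 57 was called there, with 7 arrays and no pairing (0 calls in either direction over all 12422, and 175 with an unadjusted p below 0.05). Their median change was 1.05 in newly transcribed RNA and 1.25 in amplified total RNA.

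**Figure D4:**
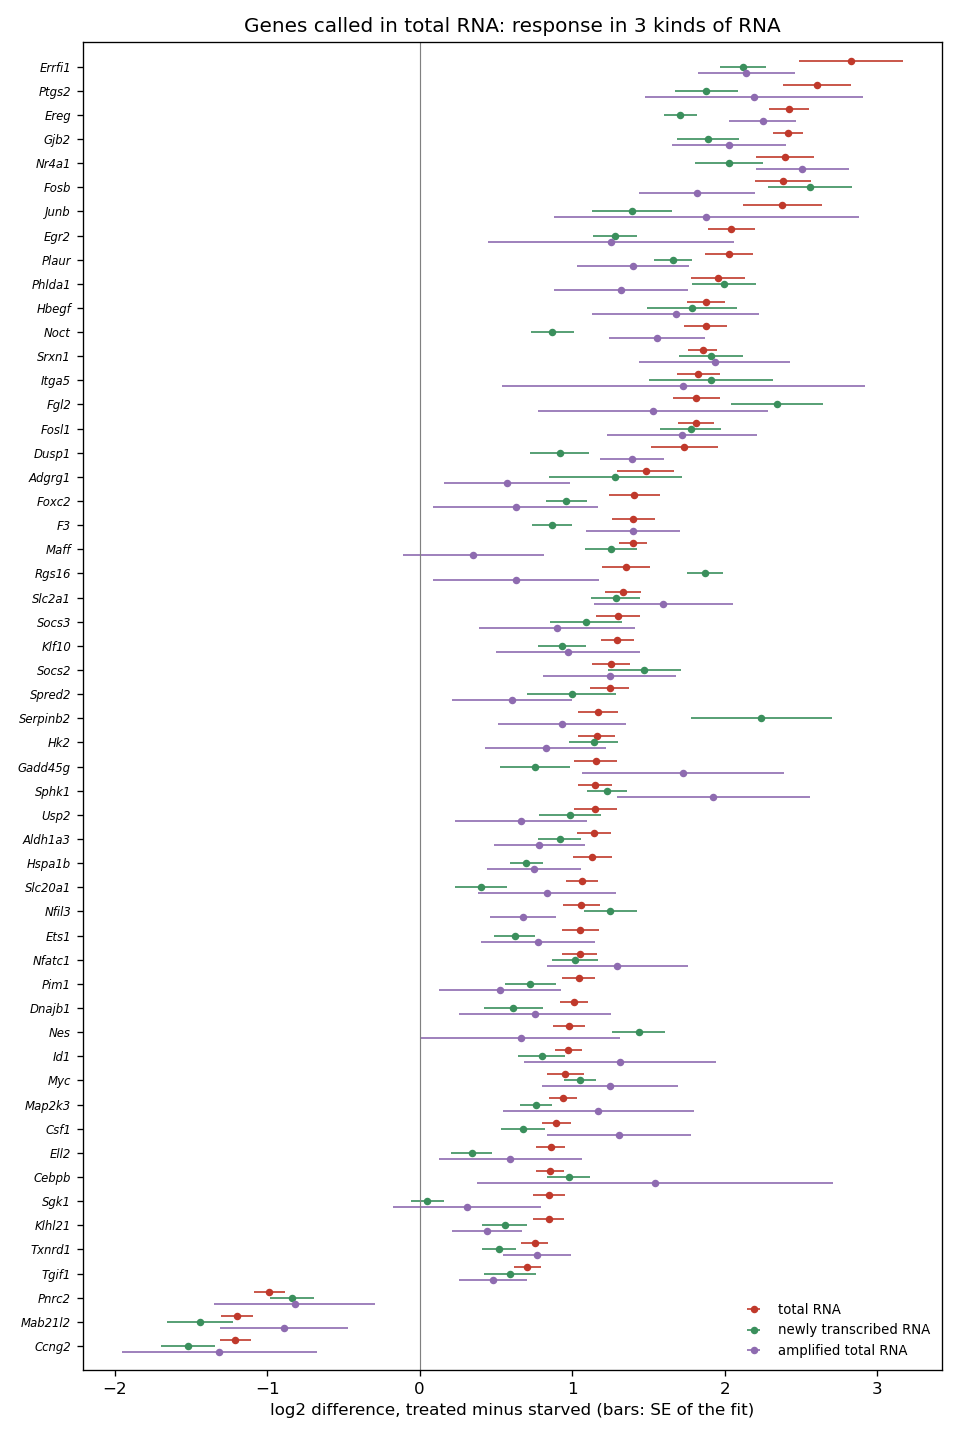
Log2 difference (treated minus starved, ± SE) of the 51 genes that rose and the 3 that fell in total RNA, each shown in total RNA (red), newly transcribed RNA (green) and amplified total RNA (purple). Sgk1 lies at 0.85 in total RNA and 0.05 in newly transcribed RNA, and the SE bars are of the fits described in the text.

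The difference of the responses was tested directly. Total minus newly transcribed RNA gave 0 calls, with a smallest adjusted p of 0.161 and 1343 probe sets (10.8%) at an unadjusted p below 0.05. Total minus amplified total RNA also gave 0 calls, with 141 (1.14%) at an unadjusted p below 0.05. These numbers come from unlike fits, with the pairs as a block for newly transcribed RNA and without a block for amplified total RNA, and cannot be compared. At an unadjusted p below 0.05, the difference to newly transcribed RNA without a block gave 138 above and 161 below 0, and that to amplified total RNA with a block gave 341 above and 356 below, again with 0 calls in each. Of the 57, which were picked for being high in total RNA, 43 had the larger change there, with a median difference of 0.22. The 95% interval of that difference lay above 0 for 13 of the 57 and below 0 for 1.

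Of the 57, Sgk1 had the smallest p for this difference: it changed by 0.85 ± 0.10 in total RNA and by 0.05 ± 0.11 in newly transcribed RNA, a difference of 0.80 (95% interval 0.47 to 1.13, adjusted p = 0.216). Noct changed by 1.88 ± 0.14 in total RNA and 0.87 ± 0.14 in newly transcribed RNA, differing by 1.01 (95% interval 0.54 to 1.47, adjusted p = 0.279). Ereg differed by 0.71 (95% interval 0.33 to 1.09, adjusted p = 0.294) and Egr2 by 0.76 (95% interval 0.27 to 1.25, adjusted p = 0.338). The dimmer Pim1 probe set changed by 1.04 ± 0.09 in total RNA and 0.19 ± 0.17 in newly transcribed RNA, a difference of 0.85 (95% interval 0.39 to 1.32, adjusted p = 0.294), and the brighter one differed by 0.32 (95% interval -0.15 to 0.79, adjusted p = 0.614). The 2 probe sets of Errfi1 gave unlike values, 1.35 (95% interval 0.61 to 2.09, adjusted p = 0.294) and 0.71 (95% interval -0.19 to 1.60, adjusted p = 0.554). Rgs16 was the case below 0: it changed by 1.35 ± 0.16 in total RNA and 1.87 ± 0.12 in newly transcribed RNA, a difference of -0.52 (95% interval -0.96 to -0.07, adjusted p = 0.398). For Serpinb2 (2.24 ± 0.46 in newly transcribed RNA) the difference was -1.07 (95% interval -2.27 to 0.13, adjusted p = 0.502). None of these differences was called.

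Outside the 57, the smallest p of this difference belonged to Tnc, tenascin C of the extracellular matrix. It changed by 0.31 ± 0.17 in total RNA and by 2.13 ± 0.15 in newly transcribed RNA on this probe set, a difference of -1.81 (95% interval -2.35 to -1.28, adjusted p = 0.161). The brighter Tnc probe set gave 0.30 ± 0.12 in total RNA and 0.76 ± 0.12 in newly transcribed RNA. Slc6a2, Ptprv, Ppdpf and Tpm3 followed, also without a call, and the probe sets of Slc6a2, Ptprv and Tpm3 did not move alike. For total minus amplified total RNA the 5 smallest p belonged to Krt81, Il3, Smyd1, Otud5 and Pou3f3, all with an adjusted p of 1.0. The difference of Krt81 was 0.88 (95% interval 0.42 to 1.33) and that of Il3 -0.75 (95% interval -1.21 to -0.30). Other Krt81 probe sets, at 7.5 or less on the total RNA arrays, gave differences of 0.498, 0.006 and -0.075. On those arrays Il3, at 8.3 to 21.1, and this Smyd1 probe set, at 1.9 to 10.2, were also dim.

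**Figure D5:**
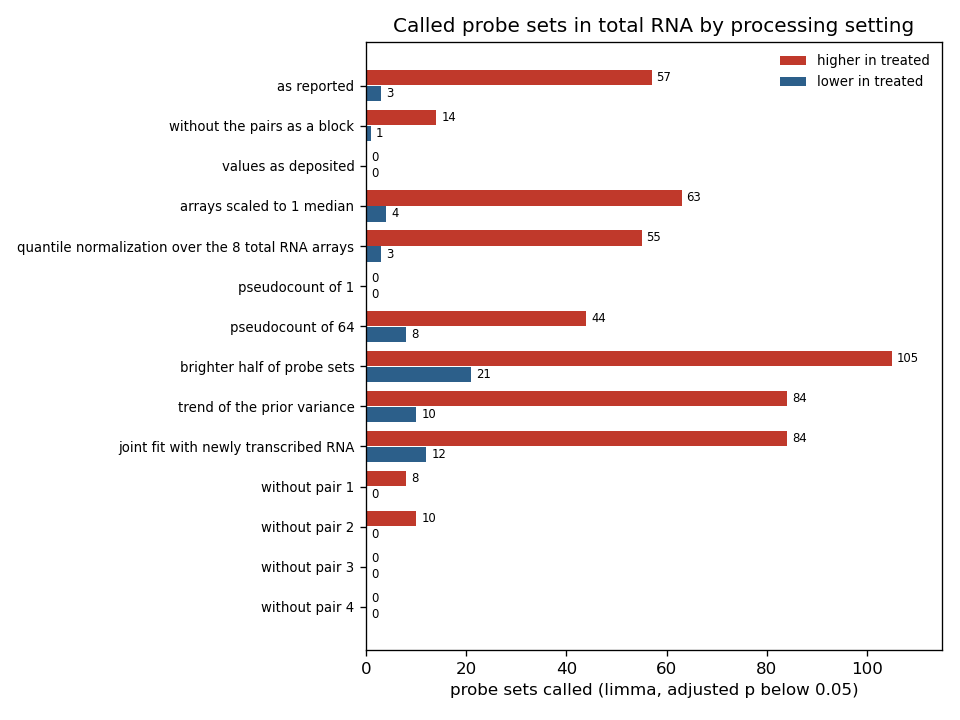
Number of probe sets called in total RNA (limma, adjusted p below 0.05) by processing setting, with those higher in treated cells in red and those lower in blue. As reported there are 57 and 3; without the pairs as a block 14 and 1; without pair 3 or pair 4 there are 0.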

How the data were processed

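Total RNA of serum-treated and serum-starved fibroblasts was measured on 1-colour Affymetrix arrays after T7-based labelling with biotin. The deposited values are 1 linear intensity per probe set (12488 on 23 arrays); per the labels, RNA was linearly amplified in all samples, and the titles alone set total RNA apart from amplified total RNA. For the summarising software and any scaling, the entry is "not given in the sources used here".

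All 23 arrays were quantile normalized together, a pseudocount of 16 was added and log2 was taken. Tests ran on 12422 probe sets, without 66 controls. limma 3.58.1 in R 4.3.3 (lmFit, eBayes, two-sided) compared 4 treated with 4 starved arrays with the replicate number of the titles as a block; newly transcribed RNA was fitted alike, amplified total RNA (4 and 3 arrays) without a block, and differences of responses as interactions. The scripts were tested on simulated data. After subtracting group means, the 2 total RNA arrays of a number correlated at 0.70, 0.23, 0.47 and 0.57. In newly transcribed RNA they correlated at 0.799, 0.802, 0.764 and 0.703, and in amplified total RNA at 0.694, 0.765 and -0.468. Arrays of unlike numbers were not compared, so these values cannot show that the numbers mark true pairs. What a number shares is not in the titles. The number of arrays limits the precision.

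Gene names came from the platform's annotation (10833 probe sets with 1 symbol, 396 with several, 1193 with none). Srf and Gapdh were not analysed here. In lists, the brightest probe set over all arrays stood for a gene. Named were the 20 largest rises, the falls, other called genes by role, list members that were called or had among the 4 largest changes, some well-known serum genes, and the 5 smallest p of each difference; further list members were chosen after their values were seen. The members and lists were chosen with earlier results of these data known. Promoter sequences were from RefSeq, GRCm38.p6. Alternatives were other scalings, pseudocounts, filters and fits, and leaving out each pair.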

Additional observations from a re-analysis of the deposited data

Results flagged for a closer look

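Among the called genes and the array measures, 122 groups of 4 arrays were checked for an array whose gap to its neighbour passed Dixon's limit for 4 values, and 7 did so; chance flags about 1 in 20 such groups. Of the 7 lone arrays 6 were array 1 of a group. For Map2k3, treated array 1 had a normalized signal of 627.6, against 1411 to 1583 on the other treated arrays, and starved array 1 had 322.0, against 706 to 806 on the other starved arrays. For Hbegf, treated array 1 had 751.6, against 1694 to 1916. For Id1, starved array 1 had 318.9, against 639 to 715. For Hspa1b, starved array 1 had 229.4, against 442 to 468. For the Junb probe set with the larger change, starved array 1 had 19.4, against 54.2 to 55.2. The seventh was Ets1, for which treated array 3 had 40.1, against 76.8 to 80.8.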

How the results depend on the processing

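The number of calls changed with the processing. Against 57 rises and 3 falls, the fit with no replicate block gave 14 and 1. Values as deposited gave 0 and 0 (59 of the 60 at an unadjusted p below 0.05), and a pseudocount of 1 gave 0 and 0 (60 of 60). A pseudocount of 64 gave 44 and 8, the brighter 6211 probe sets alone 105 and 21, a trend in the prior variance 84 and 10, and a joint fit with newly transcribed RNA 84 and 12. Scaling to 1 median gave 63 and 4, and normalizing the 8 arrays alone 55 and 3. Without 1 of the pairs there were 0 to 10 rises and 0 falls; all 60 then kept their sign and an unadjusted p below 0.05 in each case. In every setting run, all of the called probe sets that were tested kept their sign, and at least 58 had an unadjusted p below 0.05. These shares are no separate evidence, because the probe sets were called from these same arrays. Each had the same sign in all 4 pairs, so leaving out a pair could not turn it. The fits without a block, with a trend, on the brighter probe sets and joint left the change itself as it was. With values as deposited the median change of all probe sets was 0.21. In newly transcribed RNA, with alternatives chosen after seeing the data, the 113 rises and 103 falls became 0 and 0 with no replicate block, and 0 to 24 rises and 0 to 1 falls without 1 of the pairs. Ccnd1, at -0.07 and not called, was 0.363 with values as deposited, 0.012 with arrays scaled to 1 median and -0.183 to 0.048 without 1 of the pairs, above 0 without pair 3. Actb, at 0.14 and not called, was -0.026 to 0.327 without 1 of the pairs, below 0 without pair 2. The cause of these changes was not tested.

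Limits: the changes are relative to the arrays' common distribution, so a shift of all messages cannot be seen. Dim probe sets are understated by the pseudocount. With 4 pairs, small changes were not detectable. All cells had 4-thiouridine and the same Atf1 genotype, so the response without either was not measured.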

Other observations

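Several further groups gave few or no calls in total RNA. Over all 8251 genes 47 rose, 3 fell and 43.8% differed upward, with a median of -0.02. Among 18 measured genes of the TGF-beta pathway, SMADs and ID proteins, Id1 and Tgif1 rose, 12 differed upward and the median was 0.21; Tgfbi (1.13 ± 0.23) and the inhibitory SMAD gene Smad7 (0.96 ± 0.17) were not called. Of 16 circadian genes Nfil3 rose, 12 differed upward and the median was 0.16, with Bhlhe40 at 0.87 ± 0.12, Per1 at 0.47 ± 0.12 and the output factor Dbp at -0.64 ± 0.14, none of these called. Of 17 regulators of mRNA decay Noct rose and Pnrc2 fell, with a median of 0.10; Zfp36, tristetraprolin, which destabilises messages with AU-rich elements, was at 1.07 ± 0.18 without a call. Transport of amino acids and phosphate gave 1 call of 10, Slc20a1, while Slc38a2 was at -0.71 ± 0.18. Prostaglandin and hyaluronan synthesis gave 1 of 11, Ptgs2, with a median of 0.07, and adhesion and junction genes 1 of 26, Gjb2, with a median of -0.02; the axon guidance ligand Sema7a was at 1.81 ± 0.30 without a call.

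Other lists had 0 calls by limma, and the shares of their members at an unadjusted p below 0.05 are set against 12.4% of all genes. Of 28 genes of the MYC network and ribosome biogenesis 19 differed upward with a median of 0.07 (6 at an unadjusted p below 0.05, 21.4%), Odc1 at 0.41 ± 0.12 the furthest. Of 25 genes of G1 and S phase 10 differed upward with a median of -0.05 (1 at an unadjusted p below 0.05, 4.0%, Cdt1 at 0.43 ± 0.12). Of 18 genes of cholesterol and fatty acid synthesis 12 differed upward with a median of 0.12 (3 at an unadjusted p below 0.05, 16.7%, Idi1 at 0.80 ± 0.19 among them). Of 19 NF-kB genes 12 differed upward with a median of 0.08 (4 at an unadjusted p below 0.05, 21.1%, Nfkbie at 0.72 ± 0.20 and Ccl2 at 0.62 ± 0.14 among them). Of 31 extracellular matrix genes 18 differed upward with a median of 0.03, within -0.26 to 0.36, and 1 had an unadjusted p below 0.05 (3.23%).

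The 57 probe sets that rose had medians of 1.14, 1.36, 1.32 and 1.13 in pairs 1 to 4; they were chosen by a test that favours agreement of the pairs. The responses of any 2 pairs correlated at 0.056 to 0.315 across the 12422 probe sets, and probe sets are no replicates.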
